A study of Homo sapiens with 27 samples.

Results

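The libraries compared were those of the human embryonic stem line H1, at passages 10 to 25, which had been differentiated for 22 days on a matrix led by laminin LN323 or on one led by laminin LN521. They were chosen by the matrix and day in their labels, 3 libraries on LN323 and 3 on LN521, or 6 of the 27 libraries in the series. Both groups received the same media, first neural induction medium with the inhibitors CKI-7 and SB431542 and then photoreceptor differentiation medium with B27 without vitamin A, N2, BDNF, CNTF, retinoic acid and DAPT. The sample labels give the LN323 coating as LN323 alone and the LN521 coating as LN521 with LN323, whereas the study's methods give LN323 with LN521 and LN521 alone, so the groups are named here by the leading isoform, and which matrix held both laminins cannot be told from these sources. The titles number the same day 20. The cells were not sorted and came from 1 line, and nothing in the labels says that the replicates were separate differentiations, so p-values measure only the spread between these libraries. In such bulk RNA, fewer cells of a type and less RNA per cell cannot be told apart.

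Laminins are heterotrimers of an α, a β and a γ chain that build basement membranes and bind integrins and dystroglycan on the cell surface. LN323 and LN521 share the β2 chain and differ in the others, LN323 having the α3 and γ3 chains and LN521 the α5 and γ1 chains. During eye development the eye field of the anterior neural plate gives the optic vesicle, which becomes the optic cup with neural retina inside and pigment epithelium outside, and the optic stalk below. Retinal progenitors then give ganglion cells first, followed by cones, horizontal and amacrine cells, and later rods. The question addressed by the comparison is whether the laminin under the cells alters what they have become at the optic cup stage.

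The LN323 libraries held 25620624 to 42655360 counts in all and the LN521 libraries 35082137 to 40679201, the shallowest library being LN323 replicate 1. Levels are given as CPM, counts per 1e+06 counts after TMM normalization, for replicates 1, 2 and 3 in turn, and the replicate number is also the sequencing lane. Retinal markers were well expressed in all 6 libraries. RAX, the eye field homeobox gene, was at 100.03, 269 and 247 CPM on LN323 and 136, 177 and 193 CPM on LN521, and PAX6, needed for the eye field and the lens, at 863, 395 and 749 CPM and 435, 628 and 844 CPM. The labels call the cells photoreceptor progenitors. Of the defining photoreceptor genes, RCVRN, which encodes the photoreceptor calcium sensor recoverin, was at 0 to 0.295 CPM and CRX, the photoreceptor homeobox gene, at 7.09, 1.5 and 5.11 CPM on LN323 and 14.5, 4.53 and 8.3 CPM on LN521. Over the whole profile no LN521 library stood out, the mean correlation with the own group being lowest of the 6 in LN323 replicate 2 (0.951). That of LN521 replicate 1 was 0.966. In some gene groups, however, LN521 replicate 1 stood apart from the other 5 libraries. The pluripotency factor POU5F1 was at 76.2 CPM there and between 0.889 and 2.18 CPM in the others. The 18 proneural and early neuron genes summed to 613 CPM there and to 163 to 249.5 CPM in the others, and the 19 eye field and neural retina factors to 2175 CPM there and 2615 to 4609 CPM in the others. HOX genes, which mark hindbrain and spinal levels or trunk tissue, summed to 32.7, 374 and 67.2 CPM on LN323 and to 363, 121 and 25.4 CPM on LN521, highest in LN323 replicate 2 and LN521 replicate 1. The part of these libraries' other transcripts in the results below was not tested, and values without LN521 replicate 1 are given where a named call is lost.

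Between LN323 and LN521, 238 of 38609 genes (0.616%) passed a Benjamini-Hochberg adjusted p-value of 0.05 in edgeR's quasi-likelihood test with lane as a block, and 1960 had an unadjusted p-value under 0.05. Of the 238, 118 (0.306%) were higher and 120 (0.311%) were lower on LN323. Among the 16018 genes with a mean of at least 1 CPM over the 6 libraries, 225 (1.4%) were called. The counts depended on the model. Without the lane block 0 genes passed, with 1209 at an unadjusted p-value under 0.05. With only the 22945 genes kept by filterByExpr 0 genes passed as well (1076 unadjusted), and limma on log2(TPM + 1) gave 0 (1688 unadjusted). In the fit reported here, the weight given to the spread shared across genes was 87.7 prior degrees of freedom, against 4 residual degrees of freedom for each gene. With filterByExpr and the lane block this weight was 4.58. With the genes of low count kept but no lane block it was 15.9, so 87.7 was reached only with both. The DESeq2 Wald test without a prior gave 626 genes, 112 of them among the 238, and robust estimation of the spread in edgeR gave 49. The level in each library is therefore given for the genes that matter.

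All 3 LN323 libraries lay outside the range of the 3 LN521 libraries for 72 of the 118 genes higher on LN323 and for 62 of the 120 lower genes. Over all genes tested, this held for 7.02%, with 2.63% in the higher and 4.39% in the lower direction. The called genes were chosen by a test on these same libraries, so their larger share is no support for the calls. The median log2 fold change was 1.11 for the higher genes and -1.78 for the lower genes, against -0.07 over all genes tested. In 8 of the lower genes all LN323 libraries had 0 counts, and setting these at the bound given below does not move the median. Both sets were mostly protein coding, with 117 of 118 and 106 of 120 genes. LN521 replicate 1 was the highest LN521 library for 85 of the 120 lower genes and the lowest for 72 of the 118 higher genes. LN521 replicate 3 was the one nearest LN323, being the highest LN521 library for 86 of the higher genes and the lowest for 83 of the lower genes. Without LN521 replicate 1, 98 of the 118 higher and 65 of the 120 lower genes were still called, and 1 gene changed direction. In that fit 628 of 37797 genes were called in all, 367 higher and 261 lower. Leaving out LN323 replicate 1, 2 or 3 instead left 13, 30 or 31 called genes, all among the 238.

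**Figure D1:**
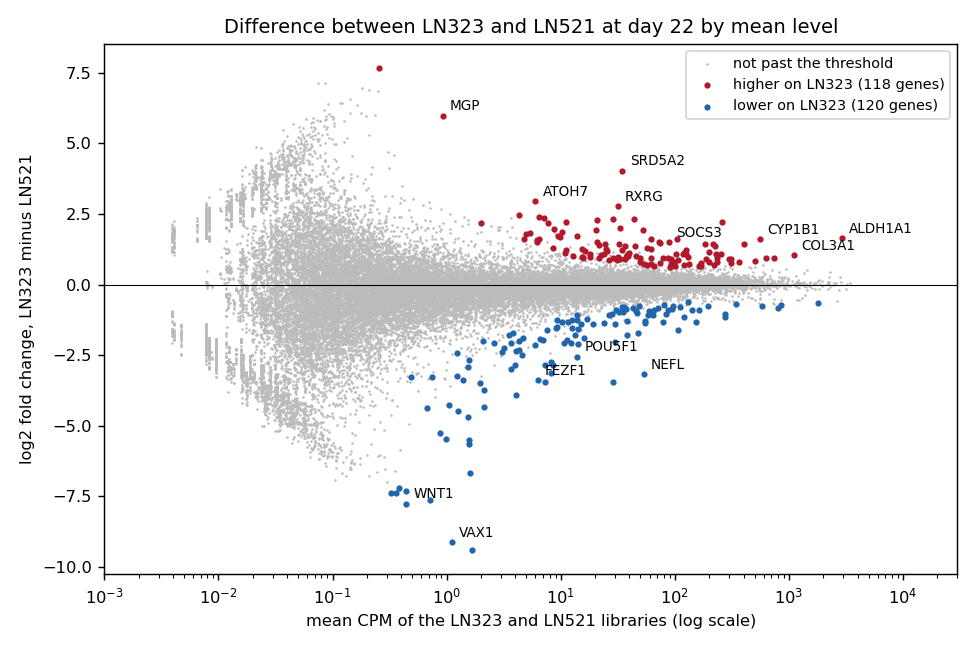
Log2 fold change of each gene (LN323 minus LN521, day 22, y axis) against its mean CPM over the 6 libraries (x axis, log scale), with the 118 higher genes in red, the 120 lower genes in blue and the rest in grey. Most called genes had a mean above 1 CPM, and the called genes of largest fall, such as VAX1 and WNT1, lay at low levels.

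**Figure D2:**
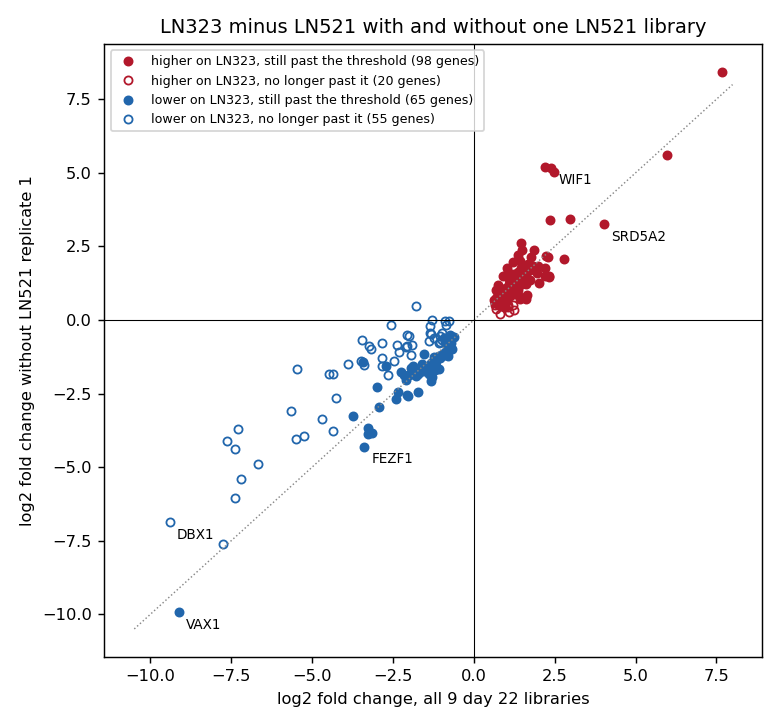
Log2 fold change of the 238 genes without LN521 replicate 1 (y axis) against that with all 9 day 22 libraries (x axis), filled where the gene still passed the threshold, with a dotted line of equality. The higher genes mostly stayed near the line (98 filled), while many lower genes moved toward 0 (65 filled).

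The general markers of the optic cup did not pass the test. RAX, SIX6, PAX6 and MITF had log2 fold changes of 0.26, 0.51, 0.01 and 0.16 with SEs of 0.18 to 0.20, and the direction of RAX, PAX6 and MITF changed when 1 library was left out. CRX had a log2 fold change of -1.09 (SE 0.34, adjusted p = 0.162). NRL, which directs rod fate, was at 0.786 to 2.13 CPM in all 6 libraries. Of the 19 eye field and neural retina factors, 3 were higher on LN323 (HMX1, TBX5 and TBX3) and 1 was lower (OTX2), with a list median of 0.10. HMX1, a homeobox gene of the retina and the periocular region, was at 206, 256 and 475 CPM on LN323 and 102, 121 and 216 CPM on LN521 (log2 fold change 1.08, SE 0.17, adjusted p = 5.41e-06). Its groups overlapped only through LN323 replicate 1 and LN521 replicate 3. OTX2, a head and photoreceptor homeobox gene also used by the pigment epithelium, was at 25.3, 8.93 and 18.9 CPM on LN323 and 55.8, 34.3 and 36.3 CPM on LN521 (log2 fold change -1.38, SE 0.23, adjusted p = 3.96e-05), every LN323 library being below every LN521 library.

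Of 15 photoreceptor fate factors, 3 were higher on LN323 and none was lower, while the list median was -0.24. RXRG (ENSG00000143171, chromosome 1, 165400922 to 165445355 of GRCh38, minus strand) encodes a retinoid receptor found in cone precursors. It was at 45.7, 27.7 and 74.4 CPM on LN323 and 1.59, 4.82 and 35.5 CPM on LN521 (log2 fold change 2.78, SE 0.29, adjusted p = 3.87e-11), so LN521 replicate 3 lay within the LN323 range and the other LN521 libraries far below it. RORB, an orphan nuclear receptor of retinal progenitors and rods, was at 20.5, 43.8 and 31.6 CPM on LN323 and 10.7, 11.6 and 11.4 CPM on LN521, with no overlap (log2 fold change 1.39, SE 0.27, adjusted p = 5.87e-04). THRB, the thyroid hormone receptor that sets cone opsin choice, had a log2 fold change of 0.98 (adjusted p = 0.00359). Of 34 phototransduction and photoreceptor structure genes, only CRB1 passed. CRB1, an apical polarity gene mutated in childhood blindness, was at 281, 234 and 414 CPM on LN323 and 55.4, 119.9 and 232 CPM on LN521 (log2 fold change 1.37, SE 0.19, adjusted p = 4.53e-07) and the groups did not overlap. ATOH7, the bHLH factor that makes progenitors competent to become ganglion cells, was at 1.64, 17.6 and 13.5 CPM on LN323 and 0.515, 1.18 and 1.42 CPM on LN521 (log2 fold change 2.96, SE 0.41, adjusted p = 4.53e-07). The groups did not overlap, but LN323 replicate 1 was only slightly above the LN521 libraries. Among the 19 ganglion cell genes ATOH7 was the only one higher, and ELAVL4 and NRN1 were lower. ELAVL4, a neuronal RNA-binding protein gene, rested on LN521 replicate 1 and was at -0.67 (adjusted p = 1) without it, where the list had 3 higher and 1 lower. NRN1, a neurite growth factor, was at 1.25, 1.1 and 1.77 CPM on LN323 and 7.16, 8.56 and 4.38 CPM on LN521 (log2 fold change -2.34, SE 0.44, adjusted p = 4.63e-04), with no overlap.

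The dorsal and ventral retina express different factors from the optic cup on. The list of 9 dorsal genes and 8 ventral genes was drawn up after values of several of them had been seen, so the counts are a description. Of the 9 dorsal genes, 6 passed (CYP1B1, ALDH1A1, TBX5, TBX3, EFNB2 and BAMBI), all 9 were above 0, and the median log2 fold change was 0.98. CYP1B1 (ENSG00000138061, chromosome 2, 38066973 to 38109902 of GRCh38, minus strand), a cytochrome of the dorsal eye whose loss causes congenital glaucoma, was at 525, 1149 and 776 CPM on LN323 and 116, 337 and 446 CPM on LN521 (log2 fold change 1.61, SE 0.18, adjusted p = 3.26e-10), every LN323 library being above every LN521 library, and CYP1B1-AS1, the antisense gene whose reads cannot be told from it, was also called. EFNB2, the dorsal ephrin that guides retinal axons, was at 496, 580.0 and 609 CPM on LN323 and 114, 163 and 479.9 CPM on LN521 (log2 fold change 1.42, SE 0.21, adjusted p = 1.13e-06), again with no overlap, though LN521 replicate 3 was close. ALDH1A1, the dorsal retinaldehyde dehydrogenase that makes retinoic acid, was at 4068, 3352 and 4229 CPM on LN323 and 280.3, 1160.1 and 4318 CPM on LN521 (log2 fold change 1.64, SE 0.26, adjusted p = 9.21e-06). The T-box factor TBX5 was at 81, 54.8 and 101 CPM and 3.91, 14.7 and 114 CPM (log2 fold change 1.62, SE 0.31, adjusted p = 4.94e-04). For both of these genes LN521 replicate 3 was the highest of the 6 libraries and LN521 replicates 1 and 2 were below all LN323 libraries. Without LN521 replicate 1 the log2 fold changes of ALDH1A1, TBX5 and TBX3 fell to 0.86, 0.71 and 0.48, and TBX3 was no longer called (adjusted p = 0.269). BMP4, the ligand that sets dorsal identity, was not called (log2 fold change 0.03, SE 0.20, adjusted p = 1).

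Of the 8 ventral genes, 3 were lower (VAX1, VAX2 and SMOC1), none was higher, and the median was -0.11. VAX1, a homeobox gene of the optic stalk, had 0 counts in all 3 LN323 libraries and was at 6.27, 0.344 and 0.0569 CPM on LN521, a level at least 25.9-fold lower on LN323 when the LN323 mean is set at a floor of 3 counts per library (adjusted p = 1.61e-06). Nearly all of it came from LN521 replicate 1, and over the other LN521 libraries the bound was 2.33-fold. VAX2, its ventral retinal paralog, was at 0.234, 0.608 and 0.86 CPM on LN323 and 14.2, 6.05 and 0.227 CPM on LN521 (log2 fold change -2.99, SE 0.62, adjusted p = 0.00223), with LN521 replicate 3 below all LN323 libraries and the other LN521 libraries above them. Of the VAX2 exon length 56.3% is shared with another gene on the same strand, so its reads are uncertain. PAX2, ALDH1A3, EPHB2, EPHB3 and BMPR1B had adjusted p-values of 1. SMOC1 was no longer called without LN521 replicate 1 (log2 fold change -0.85, adjusted p = 0.913).

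Next to the eye field lie the optic stalk and the forebrain. Of 28 optic stalk and ventral forebrain genes, 5 were lower, among them VAX1, VAX2, SP8 and FEZF1, and 1 was higher (FEZF2), 22 had a log2 fold change below 0, and the median was -0.62. FEZF1, a zinc finger factor of the anterior forebrain, was at 4.05, 0.187 and 1.67 CPM on LN323 and 17.9, 9.18 and 4.8 CPM on LN521 (log2 fold change -3.39, SE 0.53, adjusted p = 7.15e-06). SP8, a patterning factor of the telencephalon, was at 8.1, 1.22 and 6.8 CPM on LN323 and 23.4, 11.2 and 14 CPM on LN521 (log2 fold change -2.08, SE 0.36, adjusted p = 1.07e-04). For both genes every LN521 library was above every LN323 library, and both calls held without LN521 replicate 1. Over all alternative fits, FEZF1 was called in 10 of 23 and SP8 in 8 of 24. Neither passed the DESeq2 Wald test without a prior (adjusted p = 0.292 and 0.389). The antisense transcript FEZF1-AS1 had a log2 fold change of -3.13, but the counting of strand is not given in the sources used here, so its reads cannot be told from those of FEZF1. FEZF2, the paralog of FEZF1, moved the other way, at 21.4, 9.78 and 27.6 CPM on LN323 and 6.04, 1.43 and 16.4 CPM on LN521 (log2 fold change 1.73, SE 0.29, adjusted p = 3.68e-05), higher on LN323 within each lane.

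Of 42 neuronal filament, synapse and transmitter genes, 5 were lower (NEFL, NEFM, SCN3A, GRIA1 and DDC) and 1 was higher (PRPH), with a median of -0.53. NEFL, the light neurofilament, was at 2.57, 9.73 and 4.52 CPM on LN323 and 257, 43.9 and 3.07 CPM on LN521 (log2 fold change -3.17, SE 0.49, adjusted p = 7.08e-06), so LN521 replicate 3 was within the LN323 range. Omitting LN521 replicate 1 gave a log2 fold change of -0.98 (adjusted p = 0.0982). SCN3A and DDC also lost their calls without it (-0.90 and -1.84, both at an adjusted p-value of 1), and the list then had 4 higher and 3 lower. DCX, the microtubule protein of migrating neurons, was at 7.87, 25.6 and 14.5 CPM on LN323 and 149.9, 17.7 and 14.7 CPM on LN521 (log2 fold change -1.78, SE 0.44, adjusted p = 0.0216), and its direction turned to 0.46 without that library. PRPH, peripherin, was at 29.2, 5.15 and 20.5 CPM on LN323 and 3.93, 1.48 and 6.08 CPM on LN521, but 71.5% of its exon length lies opposite another gene. The homeobox and bHLH factors DBX1, LBX1, TLX3, OLIG3 and LHX5, which pattern the hindbrain and spinal cord or the diencephalon and were grouped after their values were seen, were all lower. LBX1 was at 0.0779, 0 and 0 CPM on LN323 and 8.85, 0.64 and 0 CPM on LN521 (adjusted p = 4.89e-06), and OLIG3 at 0, 0.281 and 0 CPM and 11.5, 0.886 and 0.0569 CPM. In all 5 genes LN521 replicate 1 held most of the counts, and none of the 5 was called without it. FOXA2, a floor plate and endoderm factor, was at 2.48, 6.45 and 0 CPM on LN521 and at up to 0.234 CPM on LN323, so it came from LN521 replicates 1 and 2. Its adjusted p-value was 0.0823 without LN521 replicate 1.

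Of 17 pluripotency genes 7 were lower (POU5F1, NANOG, DPPA4, LIN28A, SALL4, DNMT3B and GDF3), none was higher, and the median was -1.62. POU5F1, the core pluripotency factor, was at 2.18, 0.889 and 1.38 CPM on LN323 and 76.2, 1.38 and 1.54 CPM on LN521 (log2 fold change -2.55, SE 0.53, adjusted p = 0.00229). NANOG was at 0.312, 0 and 0.0737 CPM on LN323 and 11.2, 0.0492 and 0.114 CPM on LN521 (log2 fold change -3.50, SE 0.86, adjusted p = 0.0196). LN521 replicates 2 and 3 were within the LN323 range for both genes, and without replicate 1 the log2 fold changes were -0.18 and -1.39, with adjusted p-values of 1 and 1. LIN28A and SALL4 differed in the other libraries too. LIN28A, the RNA-binding protein of early progenitors that blocks let-7, was at 48.3, 42.5 and 59 CPM on LN323 and 227, 155 and 105 CPM on LN521 (log2 fold change -1.62, SE 0.22, adjusted p = 4.53e-07), and its log2 fold change without LN521 replicate 1 was -1.73 (adjusted p = 4.54e-20). SALL4, a zinc finger factor of stem cells and embryonic progenitors, was at 38.5, 18.7 and 40.1 CPM on LN323 and 73.9, 49.5 and 52.8 CPM on LN521 (log2 fold change -0.95, SE 0.22, adjusted p = 0.0103). In LIN28A and SALL4 the groups did not overlap, and they were the 2 members of the list still called without that library. Over all 24 alternative fits, LIN28A was called in 11 and SALL4 in 8. Neither passed the DESeq2 Wald test without a prior (adjusted p = 0.43 and 0.311).

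**Figure D3:**
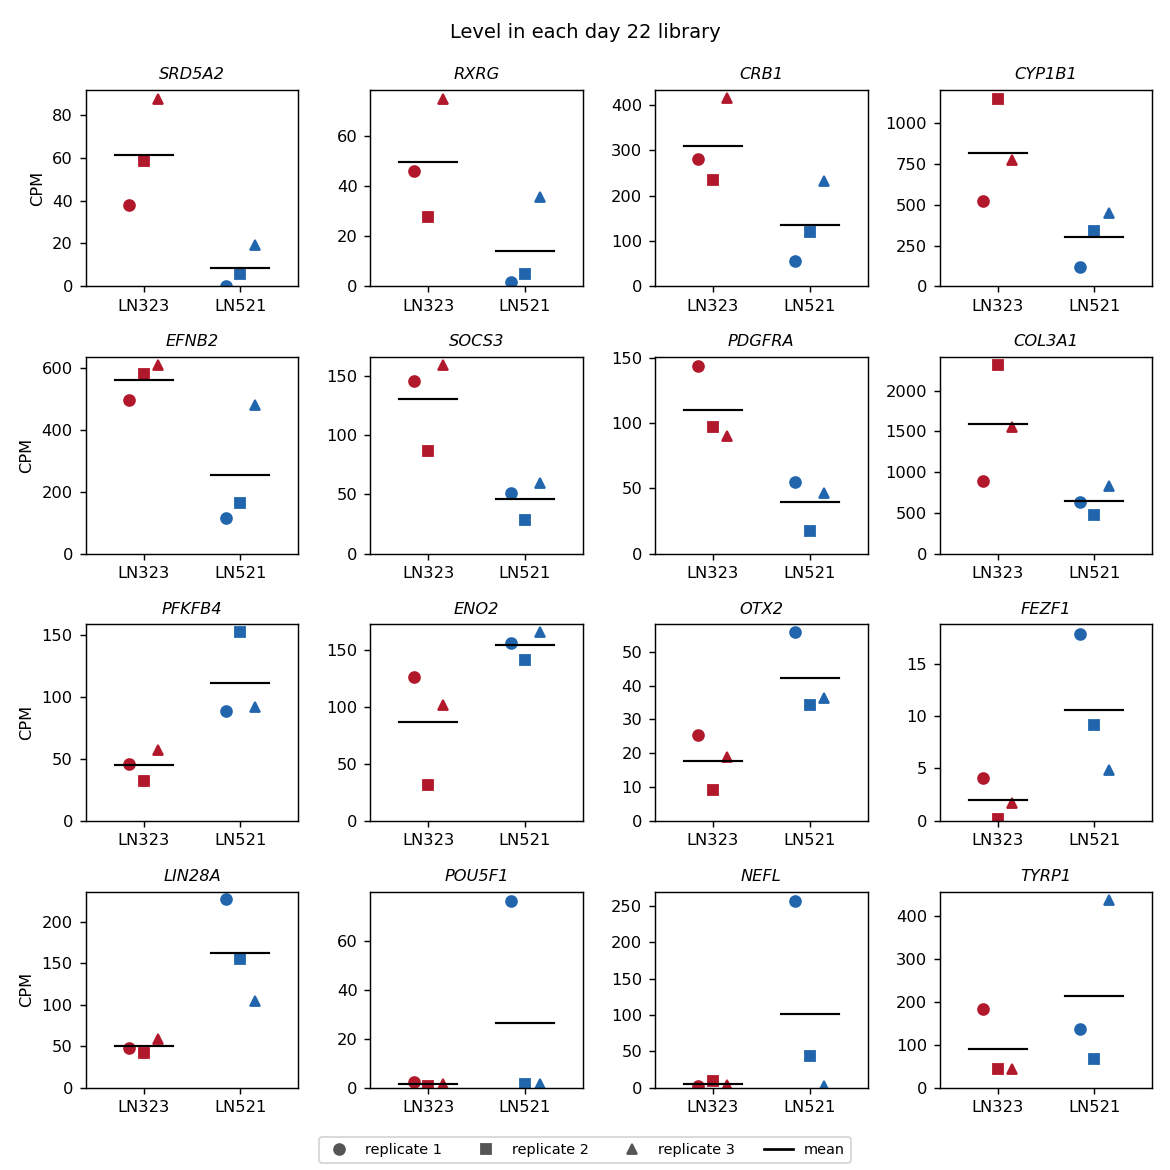
Level in CPM of 16 named genes in each of the 3 LN323 (red) and 3 LN521 (blue) libraries of day 22, with a marker shape for each replicate and a line at the mean, each axis starting at 0. SOCS3, CYP1B1, PFKFB4 and LIN28A separate the groups in all libraries, whereas the LN521 mean of POU5F1 and NEFL rests mainly on replicate 1 and that of TYRP1 on replicate 3.

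Glycolysis and low-oxygen genes move glucose into lactate and are switched on by HIF factors when oxygen falls, through DNA sites with the core letters ACGTG. Of 32 genes, 6 were lower (SLC2A3, BNIP3, PDK1, ALDOC, SLC16A3 and ENO2), none was higher, 30 had a log2 fold change below 0, and the median was -0.49. In 9 of the 32 the LN323 libraries were all below the LN521 libraries, and in 1 all above, against 4.39% and 2.63% of all genes tested. ENO2, the neuronal enolase, was at 127, 31.2 and 102 CPM on LN323 and 157, 141 and 166 CPM on LN521 (log2 fold change -1.16, SE 0.20, adjusted p = 1.24e-04). The glucose transporter gene SLC2A3 was at 703, 364 and 721 CPM on LN323 and 1099, 901 and 979 CPM on LN521 (log2 fold change -0.82, SE 0.17, adjusted p = 0.00201). In both genes the groups did not overlap, and the lowest LN323 library was replicate 2. PDK1, the kinase that turns pyruvate away from the mitochondria, was at 43, 42.7 and 33.1 CPM on LN323 and 58, 125 and 51.4 CPM on LN521 (log2 fold change -0.93, SE 0.20, adjusted p = 0.00523), BNIP3, a mitophagy receptor, at 133, 59.4 and 125 CPM and 160.4, 185 and 179 CPM, and ALDOC, an aldolase, at 33, 37.5 and 43 CPM and 65.7, 113 and 59.4 CPM. None of these 3 overlapped. PFKFB4, an enzyme that sets the rate of glycolysis and was picked after its values were seen with PFKFB3, AK4 and NDUFA4L2, had the smallest p-value of these genes, at 45.9, 31.9 and 57.2 CPM on LN323 and 89, 153 and 92.2 CPM on LN521 (log2 fold change -1.33, SE 0.19, adjusted p = 1.61e-06). Without LN521 replicate 1 the count in the list rose to 15 of 32, all lower, where 261 of all 37797 genes tested were lower. The summed level of the 32 genes was 13180, 12750 and 13580 CPM on LN323 and 14580, 22810 and 15710 CPM on LN521. LN521 replicate 2 thus stood highest, and LN521 replicates 1 and 3 were nearer the LN323 libraries. The fit without LN521 replicate 1 leaves out the LN521 library with the lowest sum.

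The bases before the start of BNIP3, ALDOC and ENO2 are shown because these genes were lower together and carry the hypoxia core. The sequences are the 250 bases before the RefSeq start (GRCh38.p14), 5′ to 3′ on the gene's strand, with ACGTG or its reverse complement CACGT in capitals, and overlapping matches on the 2 strands give the longer run CACGTG. They lie at chr10:131981924-131982173, minus strand, at chr17:28576896-28577145, minus strand and at chr12:6914330-6914579, plus strand.
BNIP3: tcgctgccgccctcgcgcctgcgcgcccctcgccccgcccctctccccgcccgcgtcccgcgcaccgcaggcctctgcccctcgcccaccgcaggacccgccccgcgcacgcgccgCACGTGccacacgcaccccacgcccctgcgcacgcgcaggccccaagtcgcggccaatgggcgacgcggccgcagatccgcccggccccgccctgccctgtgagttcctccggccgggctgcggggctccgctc
ALDOC: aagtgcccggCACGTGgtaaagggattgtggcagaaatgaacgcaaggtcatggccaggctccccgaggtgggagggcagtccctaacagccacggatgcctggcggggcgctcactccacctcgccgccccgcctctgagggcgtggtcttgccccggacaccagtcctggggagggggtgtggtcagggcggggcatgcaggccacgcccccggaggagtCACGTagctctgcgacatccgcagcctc
ENO2: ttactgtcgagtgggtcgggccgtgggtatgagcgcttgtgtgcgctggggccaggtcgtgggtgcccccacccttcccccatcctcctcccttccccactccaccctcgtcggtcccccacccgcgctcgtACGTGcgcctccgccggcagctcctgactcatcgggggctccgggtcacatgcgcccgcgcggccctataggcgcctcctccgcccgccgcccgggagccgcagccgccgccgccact
The 250 bases of BNIP3 held 2 matches counted on both strands, those of ALDOC 3 and those of ENO2 1. Of the 8 genes above with a RefSeq promoter, AK4 was the only other one with a match, while PDK1, SLC16A3, PFKFB3 and PFKFB4 had none. The windows of ENO2 and SLC16A3 lie inside the annotated genes, which start at 6913745 and 82217934. The bases just before those annotated starts were not scanned, so SLC16A3 cannot be judged and the ENO2 match applies to the RefSeq start only. The core is common, being present in 18.7% of 27305 promoters of this length, and a match does not show a site in use.

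Of 25 pigment epithelium and melanosome genes, TYRP1 and DCT were lower and none was higher, with a median of -0.28. These enzymes of melanin synthesis are targets of MITF, which binds the M-box core CATGTG. DCT was at 221, 157 and 159 CPM on LN323 and 562, 281 and 284 CPM on LN521 (log2 fold change -1.05, SE 0.20, adjusted p = 5.87e-04), with every LN323 library below every LN521 library, though omitting LN521 replicate 1 gave -0.55 for DCT (adjusted p = 0.0817). TYRP1 was at 185, 43.3 and 44 CPM on LN323 and 138, 66.3 and 437 CPM on LN521 (log2 fold change -1.32, SE 0.28, adjusted p = 0.00318), where LN521 replicate 3 was high and LN323 replicate 1 above LN521 replicates 1 and 2. MITF itself (81.8, 53.8 and 67.9 CPM on LN323, 41.2, 56.7 and 92 CPM on LN521), TYR and PMEL did not pass. The 250 bases before the RefSeq start of TYRP1 (chr9:12693135-12693384, plus strand, GRCh38.p14) are shown with CATGTG or its reverse complement CACATG in capitals.
TYRP1: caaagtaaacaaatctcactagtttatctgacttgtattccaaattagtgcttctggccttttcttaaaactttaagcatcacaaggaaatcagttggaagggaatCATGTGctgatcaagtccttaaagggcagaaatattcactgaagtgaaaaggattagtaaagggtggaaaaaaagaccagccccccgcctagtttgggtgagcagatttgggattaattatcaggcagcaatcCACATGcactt
It held 2 matches, as did that of TYR, the windows of DCT and MITF had none, and 9.5% of the 27305 promoters had at least 1. The DCT window (chr13:94549407-94549656, minus strand) lies outside the annotated gene, at 94436811 to 94479682. That of TYRP1 lies inside its annotated gene, which starts at 12685439. The bases just before the annotated starts of these 2 genes were not scanned. DCT therefore cannot be judged, and the TYRP1 matches apply to the RefSeq start only.

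Mesenchyme around the eye comes from neural crest and head mesoderm and lays down collagen. Of 26 mesenchyme and fibroblast genes, 6 were higher (COL3A1, LUM, PDGFRA, PDGFRB, ACTA2 and POSTN), none was lower, 22 had a log2 fold change above 0, and the median was 0.65. In 8 of the 26 the LN323 libraries were all above the LN521 libraries, against 2.63% of all genes tested. PDGFRA, the platelet-derived growth factor receptor of mesenchyme, was at 144, 97 and 89.9 CPM on LN323 and 54.8, 17.2 and 46.1 CPM on LN521 (log2 fold change 1.46, SE 0.23, adjusted p = 8.71e-06). COL3A1, a fibrillar collagen, was at 897, 2319 and 1557 CPM on LN323 and 629, 468 and 832 CPM on LN521 (log2 fold change 1.04, SE 0.22, adjusted p = 0.0037). The smooth muscle actin gene ACTA2 was at 33.7, 25.3 and 29.7 CPM on LN323 and 6.2, 16.6 and 13.3 CPM on LN521 (log2 fold change 1.503, SE 0.25, adjusted p = 4.01e-05). None of these 3 genes overlapped between the groups. Without LN521 replicate 1 the list had 14 higher and 1 lower, where 367 of all 37797 genes tested were higher and 261 lower. PDGFRB was then no longer called (log2 fold change 0.52, adjusted p = 0.111). None of the 6 genes passed the DESeq2 Wald test without a prior, the lowest adjusted p-value being 0.0848, for PDGFRB. The summed level of the list was 5770.0 to 6952 CPM on LN323 and 3199 to 5124 CPM on LN521. The defining marker PRRX1 was at 13.8, 41.6 and 14.1 CPM on LN323 and 29.8, 3.4 and 0.796 CPM on LN521 and did not pass (adjusted p = 0.441). MYOCD, a smooth muscle coactivator and 1 of the 12 largest rises, was at 63.4, 65.1 and 70.7 CPM on LN323 and 2.43, 15 and 47.3 CPM on LN521 (log2 fold change 2.34, SE 0.34, adjusted p = 2.03e-06), and DES, the muscle intermediate filament, at 24.2, 7.11 and 17.5 CPM and 6.76, 3.12 and 3.33 CPM (log2 fold change 1.86, SE 0.34, adjusted p = 2.92e-04). DES was the only called gene of 12 skeletal and cardiac muscle genes, of which 4 were above and 8 below 0 (median -0.25). The other defining muscle markers, MYOD1 and MYOG, reached at most 0.234 and 0.546 CPM in these libraries.

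None of the 12 endogenous laminin chain genes passed the test, whereas 3 were called higher without LN521 replicate 1, none of them a chain of the coatings. Among those of the chains in the coatings, LAMA3, LAMA5, LAMB2, LAMC1 and LAMC3 had log2 fold changes of 0.09, 0.04, 0.30, 0.09 and -0.50, each at an adjusted p-value of 1. The SE was 0.16 to 0.17 for LAMA5, LAMB2 and LAMC1 and 0.36 and 0.37 for LAMA3 and LAMC3, which were at 2.67 to 8.61 CPM and 3.35 to 13.1 CPM. Of 24 laminin receptor and integrin genes, 2 were higher, and both encode α chains that pair with integrin β1. ITGA8, which binds nephronectin and fibronectin, was at 5.07, 11.9 and 4.22 CPM on LN323 and 3.7, 0.591 and 0.171 CPM on LN521 (log2 fold change 2.47, SE 0.52, adjusted p = 0.00295). ITGA1, a collagen and laminin receptor, was at 24.4, 13.6 and 13.6 CPM on LN323 and 7.96, 7.87 and 9.38 CPM on LN521 (log2 fold change 1.00, SE 0.26, adjusted p = 0.042). Neither overlapped between the groups, although LN521 replicate 1 came close to LN323 in ITGA8, and without that library ITGA1 was not called (adjusted p = 0.0979) and the list had 2 higher and 2 lower. Of 38 basement membrane and matrix glycoprotein genes THBS2, MFAP4 and POSTN were higher and SMOC1 was lower. Of 29 other collagen genes COL16A1, COL23A1, COL9A3 and COL3A1 were higher and COL7A1, the anchoring fibril collagen, was lower (log2 fold change -1.28, with LN323 replicate 1 within the LN521 range). The cadherins CDH6 and CDH11 were higher out of 19. CDH11, the cadherin of mesenchyme, was at 243, 433 and 346 CPM on LN323 and 114, 154 and 235 CPM on LN521 (log2 fold change 1.07, SE 0.18, adjusted p = 5.56e-05) with no overlap.

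The gp130 and STAT3 pathway, through which CNTF in the medium and other cytokines act, held 3 higher genes of 18 and none lower, with a median of 0.27. CNTF, LIF and related ligands bind receptors that share gp130, encoded by IL6ST, which activates STAT3, and STAT3 induces its inhibitor SOCS3. IL6ST was at 274, 169.7 and 181 CPM on LN323 and 128, 107 and 161 CPM on LN521 (log2 fold change 0.67, SE 0.17, adjusted p = 0.0347), and STAT3 at 238, 169 and 235 CPM and 133, 109 and 137 CPM (log2 fold change 0.76, SE 0.17, adjusted p = 0.00531). SOCS3 (ENSG00000184557, chromosome 17, 78356778 to 78360077 of GRCh38, minus strand) was at 146, 86.4 and 159 CPM on LN323 and 51.2, 28.3 and 59.3 CPM on LN521 (log2 fold change 1.51, SE 0.18, adjusted p = 2.63e-09). In each of these genes all LN323 libraries were above all LN521 libraries, and SOCS3 was called in 17 of 24 alternative fits, among them both DESeq2 fits and all 6 fits that left out 1 LN323 or LN521 library. It was not called without lane 3, without the lane block in all libraries, under the stricter filters or in limma. Of 19 interferon response genes IFITM1, IFITM2 and IFITM3 were higher and none was lower. IFITM1 was at 55, 41.6 and 66.2 CPM on LN323 and 36, 16 and 23.7 CPM on LN521 (log2 fold change 1.12, SE 0.21, adjusted p = 2.86e-04), without overlap, as for the others, but these neighbouring genes are similar in sequence and their reads may be split between them.

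Antagonists were among the called genes of both the WNT and the BMP lists, though both list medians were near 0 (0.05 and 0.07). In the WNT list 27 genes were above and 23 below 0, and in the BMP list 19 and 17. Of 50 WNT genes, WIF1, DKK2 and DKK1, all extracellular antagonists or modulators of WNT signalling, were higher, and the ligand gene WNT1 was lower. DKK2 was at 11.8, 17 and 7.47 CPM on LN323 and 3.93, 0.886 and 1.42 CPM on LN521 (log2 fold change 2.36, SE 0.42, adjusted p = 1.33e-04), with no overlap. WIF1 was at 5.46, 21.6 and 6.19 CPM and 3.89, 0.984 and 0.284 CPM (log2 fold change 2.39, SE 0.58, adjusted p = 0.0167). DKK1 was at 244, 30.8 and 270.5 CPM on LN323 and 10.8, 30.6 and 172 CPM on LN521 (log2 fold change 1.23, SE 0.30, adjusted p = 0.0177), so LN323 replicate 2 was as low as LN521 replicate 2, and omitting LN521 replicate 1 gave a log2 fold change of 0.33 (adjusted p = 0.743). WNT1 had 0 counts in the 3 LN323 libraries and was at 1.9, 0.221 and 0.54 CPM on LN521, at least 10.3-fold lower on LN323 by the same floor as for VAX1. Over LN521 replicates 2 and 3 this bound was 4.43-fold, and without LN521 replicate 1 WNT1 was not called (adjusted p = 0.0979) and the list had 10 higher and 1 lower. Of 36 BMP and TGF-β genes GDF10, CHRD, ID4 and BAMBI were higher and none was lower, but without LN521 replicate 1 the list had 2 higher and 3 lower, with CHRD at 0.52 (adjusted p = 0.316) and ID4 at 0.54 (adjusted p = 0.064). CHRD, the BMP antagonist chordin, was at 63.6, 19.2 and 72.3 CPM on LN323 and 11.7, 16 and 44 CPM on LN521 (log2 fold change 1.05, SE 0.23, adjusted p = 0.00386), with overlap through LN323 replicate 2, and BAMBI, a decoy receptor, was at 94.9, 145 and 122 CPM on LN323 and 57.6, 41.1 and 91.9 CPM on LN521 (log2 fold change 0.91, SE 0.19, adjusted p = 0.00262). Of 21 retinoic acid genes ALDH1A1 and RXRG were higher, against 7 higher and 1 lower without LN521 replicate 1. No gene passed among 32 FGF genes, 19 Notch genes, 36 cell cycle genes, 27 stress genes, 49 ribosomal protein genes, 28 HOX genes or 13 endothelial and blood genes. Without LN521 replicate 1, however, 14 of the 28 HOX genes were called higher on LN323. Their sum was 32.7, 374 and 67.2 CPM on LN323 and 121 and 25.4 CPM in LN521 replicates 2 and 3. It was thus high mainly in LN323 replicate 2, and LN323 replicates 1 and 3 lay below LN521 replicate 2. Of the other lists just named, the FGF and endothelial lists had 1 higher gene each without LN521 replicate 1. The Notch list then had 1 higher and 1 lower, the stress list 2 lower and the cell cycle and ribosomal lists 0. The list of 21 neural crest and glial genes, with 0 higher and 1 lower in all libraries, had 8 higher and 0 lower without LN521 replicate 1.

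**Figure D4:**
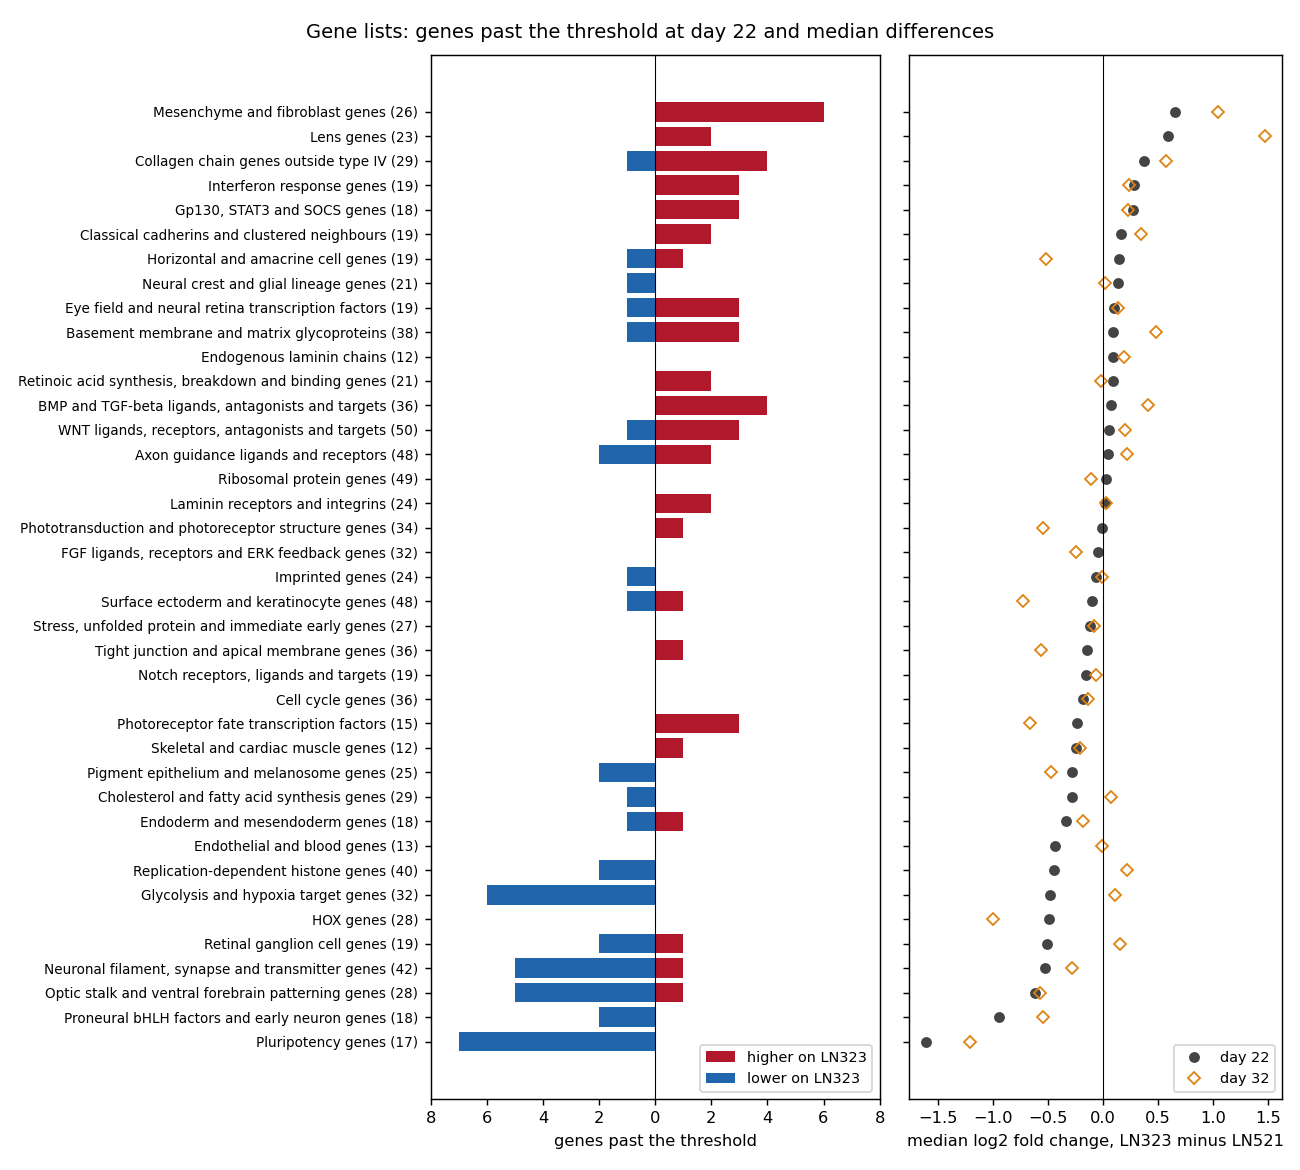
For each of 39 gene lists, with the number tested in parentheses, the left panel gives the members called higher (red, to the right) and lower (blue, to the left) on LN323 at day 22, and the right panel the median log2 fold change over the tested members at day 22 (filled circles) and day 32 (open diamonds). Pluripotency genes (7 lower), glycolysis and hypoxia genes (6 lower) and mesenchyme genes (6 higher) held most calls in 1 direction, and the glycolysis median was -0.49 at day 22 and 0.11 at day 32.

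The remaining lists held 1 or 2 calls a direction. Of 23 lens genes the crystallin gene CRYBB3 and PROX1 were higher, PROX1 being lost without LN521 replicate 1 (adjusted p = 0.136) and the list then holding 2 higher and 2 lower, and the defining lens crystallin CRYAA was at 3.2, 6.39 and 5.6 CPM on LN323 and 0.0936, 2.95 and 3.47 CPM on LN521 (adjusted p = 0.0577). Of 48 surface ectoderm genes KRT17 was higher and TFAP2B lower, and TFAP2B was also the lower gene of 19 horizontal and amacrine cell genes, in which PROX1 was the higher one. TFAP2B rested on LN521 replicate 1, its log2 fold change without that library being -0.01. Of 18 endoderm and mesendoderm genes the Nodal antagonist gene LEFTY2 was higher (21.2, 26 and 48.4 CPM on LN323, 2.86, 11.2 and 12.1 CPM on LN521) and FOXA2 lower, and of 18 proneural genes NEUROG1 and DCX were lower, NEUROG1 having an adjusted p-value of 1 without LN521 replicate 1. Of 48 axon guidance genes EFNB2 and EPHA4 were higher and SLIT1 and ROBO3 lower. Without LN521 replicate 1, SLIT1, ROBO3 and EPHA4 were at -0.93, -0.73 and 0.52 (adjusted p = 0.337, 0.371 and 0.0983), and the list had 5 higher and 1 lower. Of 29 cholesterol and fatty acid genes SCD was lower (log2 fold change -0.72, SE 0.17, adjusted p = 0.00819), and 26 were below 0. When LN521 replicate 1 was omitted SCD was at -0.51 (adjusted p = 0.0586), and the list had 1 higher and 3 lower. Of 40 replication-dependent histone genes H1-3 and H4C6 were lower, with log2 fold changes of -0.71 and -0.62, and 36 were below 0. Histone genes are near copies of each other, so these counts are uncertain. Of the imprinted genes NNAT was lower, through LN521 replicates 1 and 2 (124, 90.5 and 23.8 CPM on LN521, 18.9, 43.8 and 28.5 CPM on LN323). When LN521 replicate 1 was left out NNAT was at -0.44 (adjusted p = 0.581), and the 24 imprinted genes had 3 higher and 1 lower.

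The gene with the smallest p-value was SRD5A2 (ENSG00000277893, chromosome 2, 31522480 to 31580938 of GRCh38, minus strand), which encodes the steroid 5α-reductase that makes dihydrotestosterone. It was at 37.8, 58.4 and 87.1 CPM on LN323 and 0.281, 5.66 and 19.1 CPM on LN521 (log2 fold change 4.04, SE 0.33, adjusted p = 3.09e-16). The mean levels were 61.1 ± 24.8 CPM (SD, n = 3) against 8.35 ± 9.7 CPM (SD, n = 3). Their ratio is smaller than the fold change fitted with the lane block, and without the block the log2 fold change was 2.88. Every LN323 library was above every LN521 library, and LN521 replicate 1 had almost none. MGP, the matrix inhibitor of calcification, had the largest rise of the genes chosen by rank and level, at 1.48, 3.41 and 0.393 CPM on LN323 and 0, 0.246 and 0 CPM on LN521 (log2 fold change 5.97, SE 0.82, adjusted p = 4.53e-07), a low level in both groups. KCTD16, an auxiliary subunit of GABA-B receptors, was even across the LN323 libraries at 31.5, 35 and 33 CPM and was at 3.98, 4.72 and 17.6 CPM on LN521 (log2 fold change 2.28, SE 0.28, adjusted p = 7.08e-09). OLFM3, an olfactomedin of the retina, was at 64.6, 33.1 and 36.6 CPM and 2.76, 9.84 and 26.8 CPM (log2 fold change 2.33, SE 0.39, adjusted p = 3.96e-05), and GPX3, a secreted glutathione peroxidase, at 458, 182 and 593 CPM and 20.7, 55.5 and 259 CPM (log2 fold change 2.21, SE 0.25, adjusted p = 5.54e-10). For both genes LN521 replicate 1 was lowest and replicate 3 highest of the LN521 libraries, and in GPX3 replicate 3 was above LN323 replicate 2.

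Day 32 libraries are separate from those of day 22, but the sources do not say that their cultures were. The day 32 values are therefore no independent support for the day 22 calls. In LN521 replicates 1, 2 and 3, ALDH1A1 was at 280.3, 1160.1 and 4318 CPM at day 22 and 215, 1067 and 5771 CPM at day 32. ATOH7 did not keep its order there, at 0.515, 1.18 and 1.42 CPM and 114, 9.05 and 50.5 CPM. Of the 118 genes higher at day 22, 109 (92.4%) were above 0 at day 32 and 16 were called, and of the 120 lower genes 101 (84.2%) were below 0 and 3 were called, where 46 of 39377 genes (0.117%) were called in all. Among genes of at least 1 CPM, 50.0% had the same direction on both days. SRD5A2 had a log2 fold change of 2.82 at day 32 (adjusted p = 0.0022), SOCS3 of 1.495 (adjusted p = 0.0022), TBX5 of 2.43 (adjusted p = 0.0312) and OTX2 of -1.18 (adjusted p = 0.0235). CDH11, KCTD16, PDGFRA, PRPH, IFITM1 and LBX1 were also called at both days. The change of the difference between the days was tested in 1 model, with lane as a block within each day and no link between days. In it 9 of 42336 genes (0.0213%) passed, 6 with a larger (0.0142%) and 3 with a smaller value at day 22 (0.00709%). Of these PFKFB4, IGFBP3, KRT17, ATOH7 and DBX1 were among the 238, and of these 5 only IGFBP3 passed in each fit that left out 1 lane. PFKFB4 was lower on LN323 at day 22 and had a log2 fold change of 0.43 at day 32, and the glycolysis and hypoxia median moved from -0.49 to 0.11. Without the lane block 0 genes passed this test, with 1415 at an unadjusted p-value under 0.05.

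**Figure D5:**
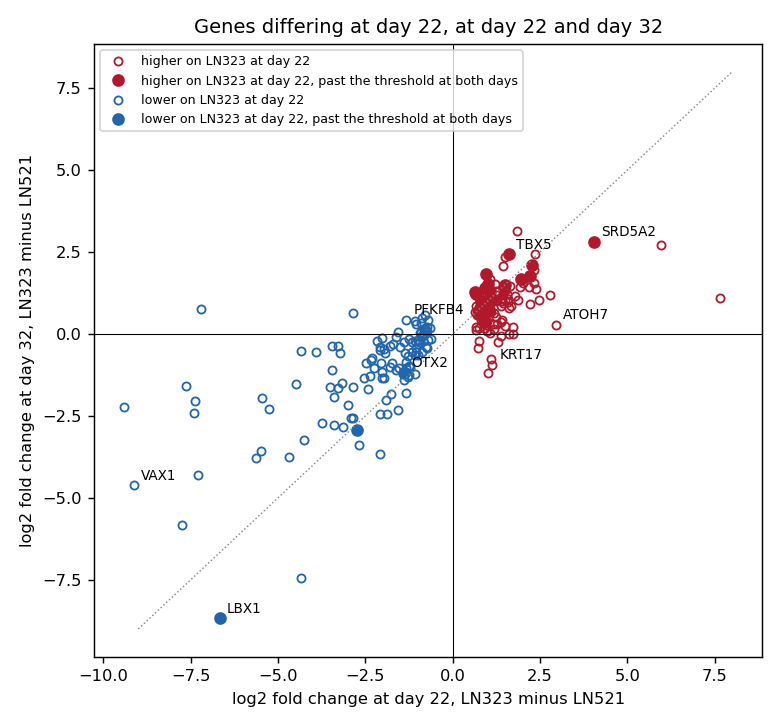
Log2 fold change (LN323 minus LN521) at day 32 (y axis) against that at day 22 (x axis) for the 118 higher (red) and 120 lower (blue) genes of day 22, filled where the gene was called at both days, with a dotted line of equality. Most points lie in the quadrants of equal sign (109 and 101 genes), and PFKFB4 and KRT17 are among those that do not.

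At day 2 the directions were near those of other genes, while some lower genes already differed. Of the 118 higher genes 60 (50.8%) were above 0 at day 2, and of 117 lower genes tested then 68 (58.1%) were below 0, against 56.5% of genes of at least 1 CPM with the same direction. At day 2, 967 of 38650 genes (2.5%) were called, 436 higher (1.13%) and 531 lower (1.37%). Among the 118 higher genes 3 were called in the same direction (SOCS3, IFITM2 and RND3) and 5 in the opposite one. Among the lower genes 19 were called in the same direction and 6 in the opposite one, the 19 including FEZF1, ENO2, COL7A1, OLIG3 and LHX5. SOCS3 was higher on LN323 by 1.28 on the log2 scale (adjusted p = 3.80e-06), whereas CDH6 was lower on LN323 at day 2 (log2 fold change -1.64, adjusted p = 6.23e-07) and higher at day 22.

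LN523 cultures, which are in neither group, show when these genes move. From day 2 to day 22 on LN523, 97 of the 118 genes higher on LN323 rose and 4 fell, with a median log2 change of 3.36, while 25 of the 120 lower genes rose and 55 fell, with a median of -0.82. Over all genes, 5111 of 39063 rose (13.1%) and 4466 fell (11.4%), and the median over the genes tested at day 22 was 0.19. The log2 changes of LIN28A and POU5F1 over these days were -5.95 and -10.27. From day 22 to day 32, 29 of the 118 rose further and 1 fell (334 or 0.855% and 58 or 0.148% of all genes), and 23 of the 120 rose and 7 fell.

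LN523 against LN521 shares the LN521 libraries, and LN523 against LN323 shares the LN323 libraries, so their values are set side by side only. LN523 against LN521 gave 221 genes (0.572%). SOCS3 was 1.51 higher on LN323 and 1.39 higher on LN523 than on LN521 on the log2 scale, and ENO2, PDK1 and PFKFB4 had log2 fold changes (LN523 minus LN521) of -0.90, -1.35 and -1.63. LN523 against LN323 gave 5 genes (0.013%), 2 higher (0.00518%) and 3 lower on LN523 (0.00777%). RXRG was at 5.69, 7.8 and 41.8 CPM on LN523 (LN523 minus LN323 log2 fold change -2.07, adjusted p = 1.43e-06), and SRD5A2 at 3.57, 34.5 and 72.9 CPM (-1.68, adjusted p = 0.00499). Both were lower on LN523 than on LN323 within each lane, and the other called members were VAX1 and FEZF1-AS1, higher on LN523. VAX1 was at 3.35, 0 and 0.0591 CPM on LN523, so its call rested on LN523 replicate 1.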

How the data were processed

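RNA of the H1 cultures had been made into stranded total RNA libraries and read in pairs of 150 bp. Alignment by the authors was with STAR 2.5.2b to GRCh38 and counting per gene with featureCounts 1.5.1, with rRNA and mitochondrial genes removed. The deposited counts are whole numbers per gene, not normalized. The authors also deposited TPM values, used here only in limma. The strand setting of the counting is not given in the sources used here.

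Counts of the 9 day 22 libraries were fitted with edgeR 4.0.16 (R 4.3.3) by its quasi-likelihood test, with matrix and lane as terms, TMM normalization and genes with a summed count above 1. P-values were adjusted by Benjamini-Hochberg over all genes tested, at 0.05. Day 2, day 32 and LN523 comparisons were fitted in the same way. The change of the difference between days was an interaction in 1 fit. Alternatives used DESeq2 1.42.0 and limma 3.58.1 on log2(TPM + 1) and log2(TPM + 0.1). The procedure was tested on simulated data, drawn from the fitted means and spread with no lane effect and no deviating library. That test cannot show how far the calls depend on the block or on single libraries. The replicate number is the sequencing lane in the titles, a labelled batch, which is where the pairing comes from. Deviations from the group means of LN323 and LN521 libraries of lanes 1, 2 and 3 correlated at -0.257, 0.426 and 0.234 over 16032 genes. No 2 replicates agreed within sampling noise. Total counts limit the precision of single values, and floors of 3 counts cover counting error only.

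The members and gene lists were chosen with earlier results of these data known. Named genes were the 12 largest rises and 12 largest falls among called genes with the same sign in each lane and a mean of at least 1 CPM in either group, up to 6 called genes of each list, a retinal stage panel and the coating chains. Genes of the dorsal, ventral, further glycolysis and neural tube groups, and other genes outside that rule, were chosen after their values were seen. Values of a few members of the lists are not reported here.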

Additional observations from a re-analysis of the deposited data

Results flagged for a closer look

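The LN323 minus LN521 difference was not the same at day 22 and day 32 for 9 genes, which passed a test of that change itself in edgeR with lane as a block. None passed without the block, where each adjusted p-value was near 1. Leaving out 1 lane at a time, RBP3 and IGFBP3 kept an adjusted p-value under 0.05 in all 3 fits and the other 7 did not. ATOH7 and KRT17 lost it without lane 3 (1 and 0.889), CRYBB2 and PFKFB4 without lane 2 (1 and 1), CBLN2 and SERPINB2 without lane 2 (0.0563 and 0.334) and lane 3 (0.51 for both), and DBX1 without lane 1 (0.504) and lane 3 (0.889). ATOH7, the ganglion cell competence factor, had a difference at day 22 minus that at day 32 of 2.72 on the log2 scale (adjusted p = 0.00812), with 2.96 at day 22 and 0.29 at day 32. It was at 1.64, 17.6 and 13.5 CPM on LN323 and 0.515, 1.18 and 1.42 CPM on LN521 at day 22, and at 43.2, 68.5 and 43.2 CPM and 114, 9.05 and 50.5 CPM at day 32. CBLN2, a synaptic organizer of the cerebellin family, had a difference at day 22 minus that at day 32 of 2.00 on the log2 scale (adjusted p = 0.0451), with 0.80 at day 22 and -1.23 at day 32. It was at 10.4, 14.8 and 18.9 CPM on LN323 and 3.93, 13.5 and 9.72 CPM on LN521 at day 22, and at 14.3, 5.84 and 12.3 CPM and 41.5, 18.1 and 16 CPM at day 32. CRYBB2, a lens crystallin gene, had a difference at day 22 minus that at day 32 of -4.94 on the log2 scale (adjusted p = 0.0294), with -0.93 at day 22 and 3.85 at day 32. It was at 0.156, 0.351 and 0.197 CPM on LN323 and 0.304, 1.21 and 0.227 CPM on LN521 at day 22, and at 1.6, 21.2 and 5.35 CPM and 0.0503, 0.21 and 1.59 CPM at day 32.

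DBX1, a neural tube homeobox gene, had a difference at day 22 minus that at day 32 of -7.19 on the log2 scale (adjusted p = 0.04999), with -9.40 at day 22 and -2.24 at day 32. It was at 0, 0 and 0 CPM on LN323 and 8.8, 1.3 and 0 CPM on LN521 at day 22, and at 0.628, 0.0484 and 0.574 CPM and 4.22, 1.02 and 1.21 CPM at day 32. Its day 22 value is a fitted one against 3 LN323 libraries at 0 counts and is no bound. IGFBP3, an insulin-like growth factor binding protein gene, had a difference at day 22 minus that at day 32 of 1.81 on the log2 scale (adjusted p = 0.00326), with 1.09 at day 22 and -0.76 at day 32. It was at 141, 221 and 129 CPM on LN323 and 64.6, 59 and 96.1 CPM on LN521 at day 22, and at 174, 177 and 218 CPM and 507, 308 and 200.5 CPM at day 32. KRT17, an epithelial keratin gene, had a difference at day 22 minus that at day 32 of 2.04 on the log2 scale (adjusted p = 0.00133), with 1.13 at day 22 and -0.94 at day 32. It was at 15.3, 14.6 and 14.2 CPM on LN323 and 6.08, 11 and 4.66 CPM on LN521 at day 22, and at 109.7, 384 and 108 CPM and 349, 394 and 191 CPM at day 32.

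PFKFB4, a regulator of glycolysis, had a difference at day 22 minus that at day 32 of -1.79 on the log2 scale (adjusted p = 0.0217), with -1.33 at day 22 and 0.43 at day 32. It was at 45.9, 31.9 and 57.2 CPM on LN323 and 89, 153 and 92.2 CPM on LN521 at day 22, and at 50.6, 72.8 and 67.4 CPM and 19.2, 38.1 and 129 CPM at day 32. RBP3, the gene of the interphotoreceptor retinoid-binding protein, had a difference at day 22 minus that at day 32 of 4.27 on the log2 scale (adjusted p = 0.00373), with 2.51 at day 22 and -1.74 at day 32. It was at 1.25, 3.65 and 0.786 CPM on LN323 and 0.0936, 0.0492 and 0.597 CPM on LN521 at day 22, and at 5.83, 11 and 2.71 CPM and 40.8, 10.7 and 10.9 CPM at day 32. SERPINB2, a serine protease inhibitor gene, had a difference at day 22 minus that at day 32 of 3.15 on the log2 scale (adjusted p = 0.0472), with 0.92 at day 22 and -2.27 at day 32. It was at 1.01, 0.982 and 1.35 CPM on LN323 and 0.234, 0.492 and 1.22 CPM on LN521 at day 22, and at 0.514, 8.96 and 1.28 CPM and 3.54, 29.6 and 5.48 CPM at day 32.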

How the results depend on the processing

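The number of genes called between LN323 and LN521 at day 22, 238, depended on the model, the filter and single libraries. It was 0 without the replicate block (edgeR, 1209 at an unadjusted p-value under 0.05), 0 with filterByExpr (1076), 0 with at least 10 counts in every library (878), 0 with limma on either TPM scale (1688 and 1833) and 0 without both block and low genes, a fit added after seeing the data (688). Where filters lowered it, the prior degrees of freedom fell from 87.7 to 4.58 and 4.16, and without the replicate block they were 15.9. It was 390 with all 27 libraries, 49 with robust estimation, 626 and 73 with DESeq2 without and with a prior, and 3 without both the block and LN521 replicate 1 (added after seeing the data, 823 unadjusted). Leaving out 1 library or 1 lane gave 13 to 628, the lowest without LN323 replicate 1 and the highest without LN521 replicate 1. It was 198 with RLE normalization, 217 without scaling and 282 with only the 6 libraries.

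Without the replicate block, the counts of the other comparisons were 15 at day 32 (46 with it), 1476 at day 2 (967), 0 for the change between day 22 and day 32 (9), 1 for LN523 against LN521 (221), 0 for LN523 against LN323 (5) and 170 for LN523 from day 22 to day 32 (392). With filterByExpr they were 0 at day 32 (1359 unadjusted), 0 at day 2 (3357), 0 for the change (1291), 0 for LN523 against LN521 (1002), 0 for LN523 against LN323 (221) and 8 for LN523 from day 22 to day 32. RLE normalization gave 2 for LN523 against LN323. Leaving out lanes gave 0 to 1747 at day 32, 39 to 2414 at day 2, 4 to 178 for the change, 3 to 462 for LN523 against LN521, 0 to 66 for LN523 against LN323, 6069 to 9421 for LN523 from day 2 to day 22 and 117 to 965 from day 22 to day 32.

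Of 2663 values of the 112 named genes under the alternatives, 27 had the other sign, in 10 genes. With a library or lane left out, the log2 fold changes ran from -0.20 to 0.66 for RAX, -0.26 to 0.47 for MITF, -0.12 to 0.36 for LAMA3, -0.12 to 0.27 for LAMA5, -0.41 to 0.37 for PAX6, -0.79 to 0.84 for RCVRN, -1.10 to 0.28 for LAMC3 and -2.99 to 0.46 for DCX. Without scaling LAMA5 was at -0.018 and PAX6 at -0.033. Without both the block and LN521 replicate 1, MITF was at -0.13, PAX6 at -0.14, POU5F1 at 0.018 and NANOG at 0.60. The causes of these changes of sign were not tested.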
